A study of Mus musculus with 12 samples.

Results

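The microvilli of the intestinal and renal brush border are held upright by bundled actin and held together at their tips by a protein complex, and 10 mouse genes of that machinery are described here out of 53715 gene identifiers in the deposited tables. They were chosen by name: Cdhr2, Cdhr5, Ush1c, Anks4b and Myo7b for the adhesion complex at the microvillus tips, and Myo1a, Vil1, Ezr, Slc9a3r1 and Eps8 for the actin core and its links to the membrane. The choice was made with results of these same libraries in view, so the changes below are a description, and an adjusted p-value only places a gene in the fit over all genes. In the adhesion complex the protocadherins CDHR2 and CDHR5 bind each other between neighbouring microvilli, and their tails are tied to the actin core through the scaffolds harmonin (Ush1c) and ANKS4B and the motor myosin 7B. Villin (Vil1) and EPS8 bundle and cap the core actin, myosin 1a bridges core and membrane, ezrin (Ezr) links actin to membrane proteins, and NHERF1 (Slc9a3r1) is the PDZ scaffold that ezrin anchors. These genes are best known from enterocytes and kidney tubule cells, and duct-like cells of the pancreas also carry apical microvilli.

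The samples were PDA (pancreatic ductal adenocarcinoma) organoids of the mouse lines mT6 and mT69a, epithelial cultures kept in Matrigel, from which total RNA was sequenced. All 12 libraries came from strain C57/Bl6 and shared a genotype with Trp53LSLR172H/LOH and Pdx1-Cre, in which a Cre driven by the pancreatic Pdx1 promoter releases mutant Trp53 and the remaining Trp53 allele is labelled LOH (background reading of the abbreviation: loss of heterozygosity). The control of each line carried a knockout of Rosa26, a locus used as a neutral target, and an Empty vector. The knockout group had lost Spdef and carried the same Empty vector, and the vector group had lost Spdef and carried an over-expression vector labelled SPDEF-OE. SPDEF belongs to the ETS transcription factors and is known from goblet and other secretory cells. Each of the 6 groups had 2 libraries, numbered 1 and 2. The labels describe the samples as knockout clones, the controls as Rosa26 knockout clones. In the titles the knockout and vector groups of a line carry the same knockout tag. Between the control and either of these groups, the effect of the gene, of the clone and of its culture cannot be told apart within a line. Between vector and knockout, the effect of the vector and that of the culture cannot be told apart.

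Depth ran from 9094295 to 28903831 expected counts per library, and the mitochondrial share was 12.7% to 15.5% in libraries numbered 1 and 18.59% to 27.1% in those numbered 2. Mouse Spdef had 30 and 29 counts in the mT6 controls and at most 4 in every other library, the mT69a controls included, so the label of the mT69a knockout cannot be checked by its level and the mouse gene does not report the vector. Epithelial markers were abundant, with a summed level of 2040 to 4490 TPM (transcript abundance per length, scaled to a fixed total in each library) for 6 genes in every library, and 6 pancreatic duct markers summed to 384 to 992 TPM. The duct sum moved with condition in mT69a, at 384 to 536 TPM in the controls, 737 to 963 in the knockout and 437 to 613 with the vector, and its part in the results below was not tested. Markers of fibroblasts summed to at most 0.23 TPM and those of endothelium to at most 0.27 TPM. Of the immune markers, Ptprc, Cd3e and Lyz2 had at most 3 counts in every library. The immune sum was 2.13 to 14.4 TPM, and in mT69a it was 4.12 to 5.2 TPM in the controls, 7.43 to 14.4 in the knockout and 3.48 to 5.71 with the vector. Its part was not tested. Of the 8 enterocyte markers, Fabp1, Fabp2 and Sis had at most 3 counts in every library and the sum was 6.45 to 32.0 TPM. It too moved with condition, at 19.1 to 19.9 TPM in the mT69a controls, 10.8 to 13.1 in the mT69a knockout and 7.55 to 13.2 with the vector, against 6.45 to 13.9, 17.9 to 32.0 and 8.7 to 23.2 in mT6. Its part was not tested. Acinar markers summed to 0.22 to 2.3 TPM. In bulk RNA, fewer cells of a type and less RNA per cell cannot be told apart.

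The 250 bases upstream of the RefSeq start are shown for both protocadherins, the scaffold gene Anks4b and Vil1, whose levels differed widely between groups or were called in most comparisons, since several transcription factors named below have known binding letters. The sequences are from RefSeq on GRCm38.p6, 5′ to 3′ on the strand of the gene, and 8 of the 10 genes matched that table, all but Myo7b and Eps8. Capitals mark matches on either strand to CAAAGTNCA (HNF4), TTTATG (CDX), CCGGAA (an ETS core) or CCGGAT (the variant of the ETS core preferred by SPDEF), letters chosen with the results known. No match overlaps another.
Cdhr2, chr13:54701213-54701462, plus strand: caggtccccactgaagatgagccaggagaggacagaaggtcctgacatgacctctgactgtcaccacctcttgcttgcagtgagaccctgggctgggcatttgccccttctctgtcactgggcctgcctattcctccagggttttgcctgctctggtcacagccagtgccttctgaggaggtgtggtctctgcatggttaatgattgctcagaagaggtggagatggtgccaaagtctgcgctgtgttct
Cdhr5, chr7:141276787-141277036, minus strand: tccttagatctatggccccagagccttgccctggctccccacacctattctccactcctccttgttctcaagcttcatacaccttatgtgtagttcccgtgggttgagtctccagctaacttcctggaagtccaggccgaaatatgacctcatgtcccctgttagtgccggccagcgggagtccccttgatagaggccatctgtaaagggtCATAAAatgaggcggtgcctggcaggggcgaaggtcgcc
Anks4b, chr7:120173608-120173857, plus strand: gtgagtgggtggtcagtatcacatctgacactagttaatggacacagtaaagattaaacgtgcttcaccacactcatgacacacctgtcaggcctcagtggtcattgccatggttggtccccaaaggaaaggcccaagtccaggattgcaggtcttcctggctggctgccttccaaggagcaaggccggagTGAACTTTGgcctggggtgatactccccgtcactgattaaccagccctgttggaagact
Vil1, chr1:74409134-74409383, plus strand: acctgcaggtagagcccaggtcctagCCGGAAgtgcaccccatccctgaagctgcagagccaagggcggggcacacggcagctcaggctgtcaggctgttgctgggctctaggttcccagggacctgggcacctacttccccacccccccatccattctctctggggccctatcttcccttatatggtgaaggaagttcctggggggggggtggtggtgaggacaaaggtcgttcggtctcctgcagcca
The Anks4b window held 1 HNF4 match, whose first base lay 59 bases before the start, that of Cdhr5 a CDX match at 39 bases, and that of Vil1 an ETS match at 224 bases. Of 32851 windows of the same length over all genes, 1.19% held the HNF4 letters, 10.8% the CDX letters, 12% the ETS core and 4.94% the SPDEF variant. Ezr held the ETS core at 129 and 184 bases, and the windows of Cdhr2, Myo1a, Slc9a3r1 and Ush1c held none of the 4 motifs. None of the 8 windows held CCGGAT. A match is a run of letters and not a binding site, and a missing match says only that these letters are not in the window.

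Levels are given first, as CPM (counts scaled to library size with TMM factors, not to gene length) in library 1 and library 2 of each group. Cdhr2 (ENSMUSG00000034918, chromosome 13, 54701461 to 54736662 on GRCm38, plus strand) had 97.8 and 112 CPM in the mT69a controls, 14.4 and 6.09 in the mT69a knockout and 1.42 and 0.722 with the vector. In mT6 it had 0.762 and 1.04 CPM in the controls, 0.708 and 2.21 in the knockout, and 0 and 0.235 with the vector. The mT69a controls stood far above every other library, the 3 mT69a groups did not overlap one another, and the mT6 libraries all lay at a level that mT69a reached only with the vector. Per length, the mean was 27.7 TPM ± 0.113 (SD, n = 2) in the mT69a controls and 0.235 TPM ± 0.0354 in the mT6 controls. From control through knockout to vector the summed counts of mT69a went from 3234 to 337 to 32.

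Cdhr5 (ENSMUSG00000025497, chromosome 7, 141269083 to 141276786, minus strand), the partner protocadherin, had 46.9 and 50.9 CPM in the mT69a controls, 11.5 and 7.92 in the mT69a knockout and 14.8 and 8.21 with the vector. In mT6 it had 9.67 and 17.6 CPM in the controls, 7.43 and 14.7 in the knockout and 9.0 and 12.2 with the vector. Only the mT69a controls stood apart, and the other 5 groups overlapped their neighbours in the order of levels. Unlike Cdhr2, Cdhr5 thus stayed within a range of 7.43 to 17.6 CPM in the 10 libraries outside the mT69a controls.

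Among the scaffolds of the adhesion complex, Ush1c (harmonin) was not detected beyond 1 count in all 12 libraries together, in vector library 2 of mT69a, and did not pass the filter on low counts. Anks4b (ENSMUSG00000030909, chromosome 7, 120173858 to 120185586, plus strand), the ankyrin-repeat scaffold, had 26.8 and 30.3 CPM in the mT69a controls, 14.0 and 11.2 in the mT69a knockout and 7.71 and 6.58 with the vector. In mT6 it had 2.28 and 3.64 CPM in the controls, 3.01 and 7.43 in the knockout and 2.22 and 5.40 with the vector. The 3 mT69a groups followed one another without overlap, and the 3 mT6 groups all overlapped. Library 2 was higher than library 1 in each mT6 group.

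Myo7b (ENSMUSG00000024388, chromosome 18), the motor of the complex, had 45.5 and 60.4 CPM in the mT6 controls, 39.0 and 48.9 in the mT6 knockout and 14.3 and 18.5 with the vector. In mT69a it had 80.8 and 86.5 CPM in the controls, 50.2 and 35.1 in the knockout and 15.6 and 17.1 with the vector. All 4 vector libraries lay below all 8 others, and the vector groups of the lines were at the same mean of 16.4 CPM. Myo1a (ENSMUSG00000025401, chromosome 10, 127705170 to 127720940, plus strand), the brush border myosin 1, was scarce: 7.75 and 7.21 CPM in the mT69a controls, 0.914 and 0.870 in the mT69a knockout and 0.653 and 0.361 with the vector. In mT6 the 6 libraries held 0 to 0.619 CPM, with 18 summed counts in the controls, 18 in the knockout and 1 with the vector. As for Cdhr2, the mT69a controls stood far above every other library.

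Vil1 (ENSMUSG00000026175, chromosome 1, 74409376 to 74435559, plus strand), which bundles and severs the actin of the core, had 180 and 179 CPM in the mT6 controls and 182 and 189 in the mT69a controls. The knockout libraries held 92.1 and 110 CPM in mT6 and 127 and 111 in mT69a. With the vector the values were 38.1 and 42.8 CPM in mT6 and 72.6 and 83.6 in mT69a. The control libraries of both lines thus lay together at the top, each knockout library lay below every control, and each vector library lay below every knockout library. Vil1 overlaps Usp37 on the opposite strand, and whether the counting used strand is not given in the sources used here. Usp37 itself had 61.7 and 61.0 CPM in the mT6 controls and 51.8 to 55.8 in the other 4 mT6 libraries, and 39.8 to 49.3 CPM in mT69a, where it was not lowest with the vector.

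The linkers and the capping protein moved least. Ezr (ENSMUSG00000052397, chromosome 17, 6738041 to 6782784, minus strand) was the most abundant of the 10 per length, at 162 to 245 TPM as group means, with 356 to 562 CPM in the 6 mT6 libraries and 562 to 683 CPM in the 6 of mT69a. The 3 groups overlapped within each line. Slc9a3r1 (ENSMUSG00000020733, chromosome 11, 115163341 to 115181181, plus strand) had 92.7 and 83.5 CPM in the mT6 controls, 101 and 83.2 in the knockout and 73.7 and 59.5 with the vector. In mT69a it had 134 and 110 CPM in the controls, 135 and 114 in the knockout and 106 and 83.9 with the vector. The vector libraries lay lowest in both lines, and control and knockout overlapped. Eps8 (ENSMUSG00000015766, chromosome 6, 137477245 to 137654876, minus strand), a capping and bundling protein of the microvillus tip, had 283 and 214 CPM in the mT6 controls, 379 and 317 in the knockout and 265 and 227 with the vector. In mT69a it had 249 and 259 CPM in the controls, 319 and 290 in the knockout and 224 and 231 with the vector. The knockout libraries were the highest in both lines without overlap, and controls and vector libraries lay close together.

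**Figure D1:**
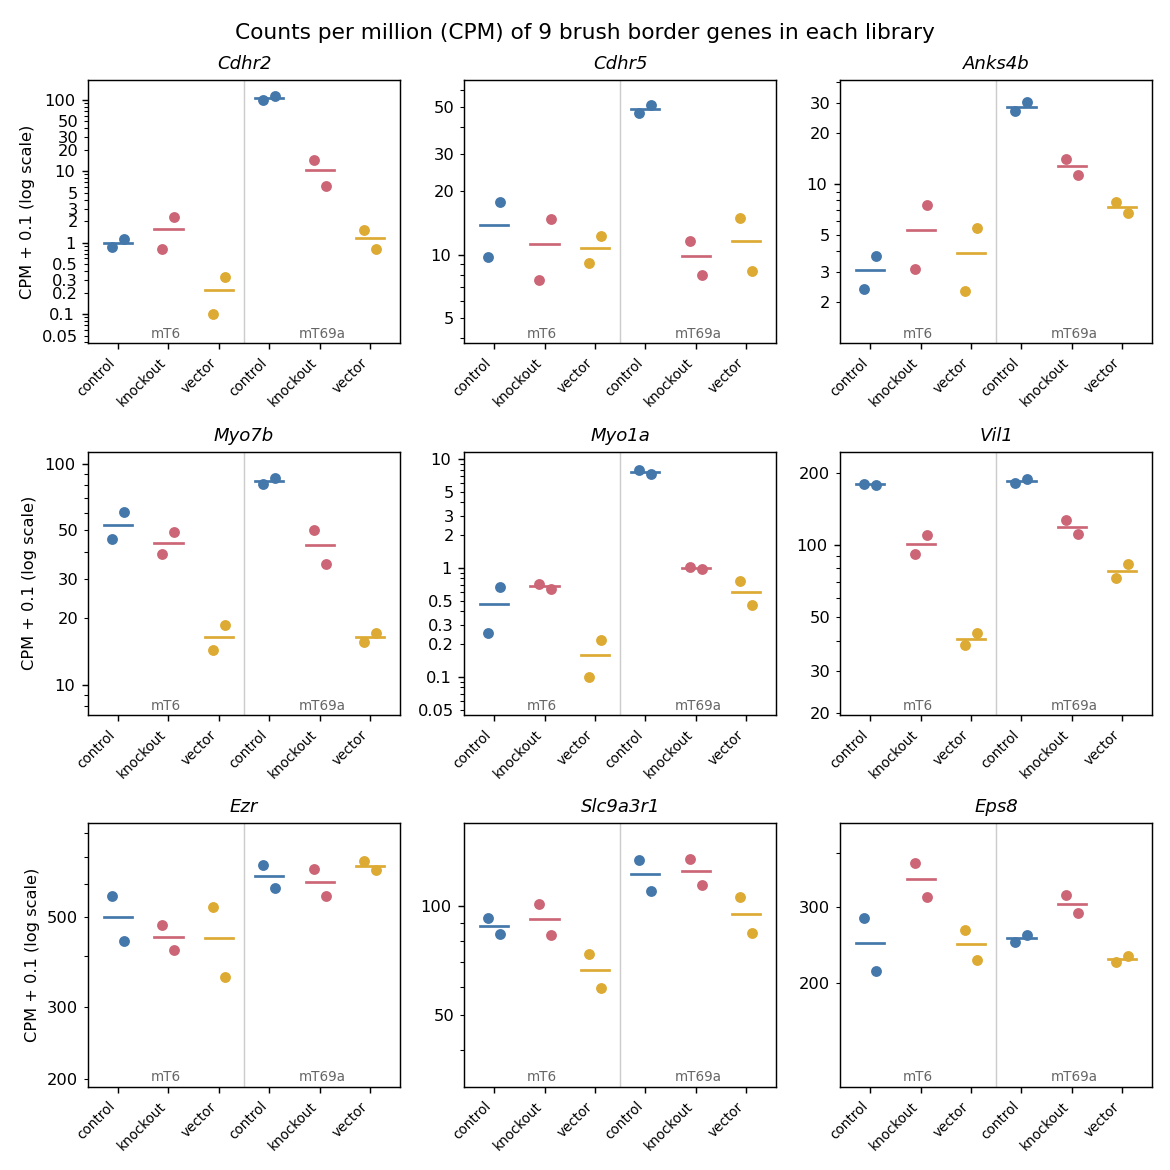
CPM + 0.1 (log axis, its range differing between panels) of the 9 detected genes in each library, by condition within mT6 and mT69a; points are libraries and bars are means of 2. Cdhr2, Cdhr5, Anks4b and Myo1a were high in the mT69a controls, Vil1 and Myo7b were lowest with the vector in both lines, and Ezr stayed within 356 to 683 CPM.

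Over the 6 group means on the log2 CPM scale, Cdhr2 spanned 8.88, Myo1a 5.37, Anks4b 3.24, Myo7b 2.35, Cdhr5 2.34, Vil1 2.19, Slc9a3r1 0.90, Ezr 0.62 and Eps8 0.61. The lowest group of Cdhr2 and Myo1a, mT6 with the vector, held 2 and 1 summed counts, so these ranges rest partly on the prior count of 2. The wide ranges of Cdhr2, Myo1a and Anks4b came with a difference between the control clones of the lines. In the mT69a control against the mT6 control, 5 of the 9 tested genes were called higher and none lower, beside 13.4% of all 14473 tested genes called higher and 14.7% called lower. The log2 difference of Cdhr2 was 6.81 ± 0.57 (SE; adjusted p = 4.17e-05), that of Myo1a 4.19 ± 0.53 (0.000336) and that of Anks4b 3.22 ± 0.43 (0.000597). Cdhr5 was higher by 1.83 ± 0.39 (0.00749) and Myo7b by 0.66 ± 0.21 (0.0363). Vil1 differed by 0.05 ± 0.13 and Eps8 by 0.03 ± 0.16, and neither passed. With the replicate number as a block, Slc9a3r1 (0.46, adjusted p = 0.00132) and Ezr (0.34, 0.0254) were called higher too. The call of Myo7b was lost without mT6 control library 1 (0.195), either mT69a control library (0.109 and 0.112) or mT69a vector library 1 (0.0532), and the median over chromosome 18, on which Myo7b lies, was itself 0.55 higher in the mT69a control. Adjusted p-values here and below are Benjamini-Hochberg values of edgeR's quasi-likelihood test over the 14473 genes, called under 0.05.

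The first comparison asks how the brush border genes differed between the Spdef knockout and its control. Averaged over the lines, Vil1, Cdhr5 and Myo7b were lower in the knockout, 3 of 9 tested genes, beside 2.3% of all tested genes called lower and 3.3% called higher. For Vil1 the log2 change was -0.73 ± 0.10 (SE; adjusted p = 0.00149), a 1.66-fold lower level, and it was lower in 4 of 4 pairs of same-numbered libraries. Cdhr5 fell by 1.31 ± 0.28 (0.0255) and Myo7b by 0.62 ± 0.15 (0.0351), each lower in 4 of 4 pairs. Cdhr2 at -1.29 ± 0.39 (0.0980), Myo1a at -1.28 ± 0.39 (0.0931) and Eps8 at 0.37 ± 0.11 (0.0880) did not pass. Anks4b at -0.18 ± 0.29, Ezr at -0.10 ± 0.14 and Slc9a3r1 at 0.05 ± 0.13 did not pass either. The median of the 9 was -0.62, beside 0.00 over all tested genes. With the replicate number as a block 5 were called, Eps8 (0.37, 0.00831) and Myo1a (-1.30, 0.0266) in addition, beside 2171 calls among all 14473 tested genes.

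The call of Vil1 held without each of the 12 libraries in turn, with adjusted p from 0.00162 to 0.00940. That of Cdhr5 was lost without mT6 control library 2, mT6 knockout library 1, or any 1 of the 4 mT69a control and knockout libraries (adjusted p 0.0608 to 0.0949), and that of Myo7b without mT6 control library 2, mT6 knockout library 1, either mT69a control library, mT69a knockout library 2 or either mT69a vector library (0.0574 to 0.126). Conversely Cdhr2 passed without mT69a knockout library 1 (-1.67, 0.0433), and Myo1a (-1.52, 0.0383) and Eps8 (0.49, 0.0400) passed without mT6 control library 1. On the TPM scale with a pseudocount of 1, Cdhr5 (0.0501) and Myo7b (0.233) were not called, and Cdhr2 (-1.39, 0.00235) and Myo1a (-0.65, 0.00283) were. Cdhr2 was also called with DESeq2 (-1.30, 0.00489) and with no filter on low counts (-1.29, 1.54e-09), Myo1a with no filter (0.0214), and Eps8 with DESeq2 (0.38, 0.0330).

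The average hid a difference between the lines. In mT69a, 5 of 9 genes were called lower, beside 3.71% of all tested genes called lower and 4.88% called higher: Cdhr2 fell by 3.34 ± 0.45 (adjusted p = 0.00183), Myo1a by 3.05 ± 0.50 (0.00387), Cdhr5 by 2.32 ± 0.40 (0.00666), Myo7b by 0.97 ± 0.21 (0.0161) and Vil1 by 0.64 ± 0.14 (0.0155). Anks4b, at -1.17 ± 0.39 (0.109), did not pass. In mT6, Vil1 alone was called, with a fall of 0.83 ± 0.14 (0.00981), beside 1.96% of all tested genes called lower and 1.28% called higher, and Cdhr2 stood at 0.76 ± 0.63, Anks4b at 0.82 ± 0.44 and Myo1a at 0.50 ± 0.59, none of which passed. With the block, Eps8 was called higher in mT6 (0.49, 0.0153). The difference itself, the change in mT69a minus that in mT6, passed for Cdhr2 (-4.10 ± 0.77, 0.0131) and Myo1a (-3.56 ± 0.78, 0.0216), beside 2.58% of all tested genes called lower and 4.04% called higher, and with the block also for Anks4b (-1.96, 0.0447). The difference did not pass for Cdhr5 (-2.03 ± 0.56, 0.0653) or for Vil1 (0.19 ± 0.19). In summed counts, Cdhr2 was 9.36-fold lower in the mT69a knockout than in its control (95% exact interval 8.37 to 10.5, counting error only) and Myo1a 8.35-fold lower (5.59 to 12.9). The Cdhr2 difference was lost without mT6 control library 2 (-4.39, 0.0515) or mT6 knockout library 2 (-2.96, 0.201), in which 45 of the 53 mT6 knockout counts lay. The Myo1a difference was lost without either mT6 knockout library or any 1 of the mT69a control and knockout libraries (0.0605 to 0.0747).

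Within mT69a the calls of Cdhr2 and Myo1a held without each library. That of Cdhr5 was lost without mT69a knockout library 2 (-2.08, 0.0628), that of Myo7b without either mT69a control library (0.0642 and 0.0962) or mT69a knockout library 2 (-0.73, 0.131), and that of Vil1 without any 1 of the 4 mT69a control and knockout libraries (0.0502 to 0.140). The mT6 call of Vil1 was lost without either mT6 control library (0.0508 and 0.0570) or mT6 knockout library 1 (-0.71, 0.0992), and when only the mT6 control and knockout libraries were fitted (0.138).

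Some chromosomes shifted as a whole in these clones. Over chromosome 18, where Myo7b lies, the median change in the mT69a knockout against its control was -0.49, beside -0.97 for Myo7b, and over chromosome 1, where Vil1 lies, it was -0.28 in mT6, beside -0.83 for Vil1, and -0.01 in mT69a, beside -0.64. Over chromosome 17 it was -0.44 in mT6, beside -0.16 ± 0.20 for Ezr. The medians of the chromosomes of Cdhr2, Cdhr5 and Myo1a lay between -0.10 and 0.06 in the knockout comparisons of each line. The part of these shifts in the changes of Myo7b and Vil1 was not tested.

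The next comparison asks whether the knockout clone with the SPDEF vector differed from the knockout with the empty vector. Averaged over the lines, 4 of 9 genes were called lower and none higher, beside 3.32% and 4.46% of all tested genes. Vil1 fell by 0.97 ± 0.10 (adjusted p = 0.000191), Myo7b by 1.41 ± 0.15 (0.000291), Cdhr2 by 3.43 ± 0.60 (0.00772) and Eps8 by 0.46 ± 0.11 (0.0312), and all 4 were lower in 4 of 4 pairs. In both lines the vector libraries of Vil1 and Myo7b thus lay farther from the controls than the knockout libraries did, and Cdhr2 did so in mT69a. Eps8 differed in this: at 246 CPM ± 26.8 in mT6 and 228 ± 5.18 in mT69a (SD, n = 2), its vector libraries lay near the controls at 249 ± 49.1 and 254 ± 6.56. Myo1a at -1.94 ± 0.58 (0.0739), Slc9a3r1 at -0.43 ± 0.13 (0.0705) and Anks4b at -0.66 ± 0.31 (0.283) did not pass. Cdhr5 stood at 0.08 ± 0.29 and Ezr at 0.06 ± 0.14, and their sign turned on the TPM scale (-0.04 and -0.06 at a pseudocount of 1). With the block, Slc9a3r1 (-0.43, 0.000516) and Myo1a (-1.93, 0.0415) were called. The median of the 9 was -0.66, beside -0.02 over all tested genes. No chromosome that holds 1 of the 10 genes had a median beyond -0.05 or 0.02 in this comparison in either line.

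Line by line, Vil1 fell by 1.32 ± 0.14 in mT6 (0.000921) and by 0.61 ± 0.14 in mT69a (0.0325), and Myo7b by 1.42 ± 0.22 (0.00669) and 1.39 ± 0.22 (0.00484). These were the 2 of 9 genes called lower in mT6, beside 1.14% of all tested genes called lower and 1.55% called higher, and in mT69a Cdhr2 was the third (-3.20 ± 0.56, 0.0120), beside 1.68% called lower and 2.57% called higher. No gene's change differed between the lines by edgeR's test of the difference, for which 0 of the 9 passed beside 0.0138% of all tested genes called higher and 0.0% called lower, and 1 of the 9, Vil1 (0.71 ± 0.19, unadjusted p = 0.00423), lay under an unadjusted 0.05. DESeq2 also called 0. With the block, Eps8 and Slc9a3r1 were called lower in each line as well (Eps8 0.0181 in mT6 and 0.0364 in mT69a, Slc9a3r1 0.00795 and 0.0132). The averaged call of Cdhr2 was lost without mT6 knockout library 2 (-2.84, 0.0662), the same library as above, and moved to as much as -5.40 without another. That of Eps8 was lost in 8 of 12 fits that each left out a library, those without mT6 knockout library 1, mT6 vector library 2 or any 1 of the 6 mT69a libraries (0.0518 to 0.130). The averaged calls of Vil1 and Myo7b held in all 12. Myo1a passed without mT6 control library 1 (-1.94, 0.0455) or 2 (-1.93, 0.0437). Within the lines, Myo7b was lost without mT6 knockout library 2 in mT6 (-1.24, 0.0533) and without mT69a vector library 1 in mT69a (-1.32, 0.0693). In mT69a, Cdhr2 was lost without knockout library 1 (-2.43, 0.0696) or either vector library (0.0823 and 0.113), and Vil1 without any 1 of the 6 mT69a libraries (0.0517 to 0.297).

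Against the control, the vector libraries differed most. Averaged over the lines, 5 of 9 genes were called lower and none higher, beside 6.41% and 8.04% of all tested genes. Cdhr2 fell by 4.72 ± 0.58 (adjusted p = 0.000700), Myo1a by 3.22 ± 0.53 (0.00261), Myo7b by 2.02 ± 0.16 (2.11e-05), Vil1 by 1.70 ± 0.10 (5.21e-06) and Cdhr5 by 1.23 ± 0.28 (0.0192), each lower in 4 of 4 pairs. Anks4b at -0.84 ± 0.31 (0.111), Slc9a3r1 at -0.38 ± 0.13 (0.0720), Eps8 at -0.09 ± 0.11 and Ezr at -0.04 ± 0.14 did not pass. The comparison shares its control libraries with the first and its vector libraries with the second, so it is no separate evidence. With the block, Slc9a3r1 was called lower (-0.39, 0.000740). The call of Myo1a was lost without mT6 control library 2 (-2.53, 0.0540), and that of Cdhr5 without mT6 control library 2, mT6 vector library 1, either mT69a control library or mT69a vector library 2 (0.0509 to 0.0731). Anks4b passed without mT6 vector library 2 (-1.21, 0.0450).

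In mT69a, 6 of 9 were called lower, beside 5.36% of all tested genes called lower and 7.01% called higher, with Cdhr2 at -6.54 ± 0.57 (0.000111), Myo1a at -3.82 ± 0.54 (0.00103), Myo7b at -2.35 ± 0.22 (8.65e-05), Cdhr5 at -2.07 ± 0.40 (0.00837), Anks4b at -1.99 ± 0.41 (0.0110) and Vil1 at -1.25 ± 0.14 (0.000246). In summed counts Cdhr2 was 91.5-fold lower with the vector than in the mT69a control (64.7 to 134). In mT6, Vil1 (-2.15 ± 0.14, 3.63e-05) and Myo7b (-1.69 ± 0.22, 0.00142) were called lower, beside 4.7% of all tested genes called lower and 3.9% called higher. Slc9a3r1 was called in both lines with the block (0.00799 in mT6 and 0.0112 in mT69a). The fall of Vil1 was smaller in mT69a than in mT6, with a difference of 0.90 ± 0.19 (0.0219), beside 3.91% of all tested genes called higher and 2.12% called lower. With the block Anks4b differed too (-2.28, 0.0423). Over chromosome 1, where Vil1 lies, the median was -0.31 in mT6 and -0.02 in mT69a, and that of the difference 0.32. Over chromosome 18, where Myo7b lies, the median in mT69a was -0.51. The part of these shifts was not tested. The Vil1 difference was lost in 7 of 12 fits that left out a library: either control or vector library of mT69a, either mT6 control library, or mT6 vector library 1 (0.0503 to 0.106). It was also lost on the TPM scales (0.84, 0.291 and 0.88, 0.273 at pseudocounts of 1 and 0.1). In mT69a, Cdhr5 was lost without vector library 2 (-1.72, 0.0726) and Anks4b without control library 2 (0.0624) or either vector library (0.0790 and 0.0946).

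**Figure D2:**
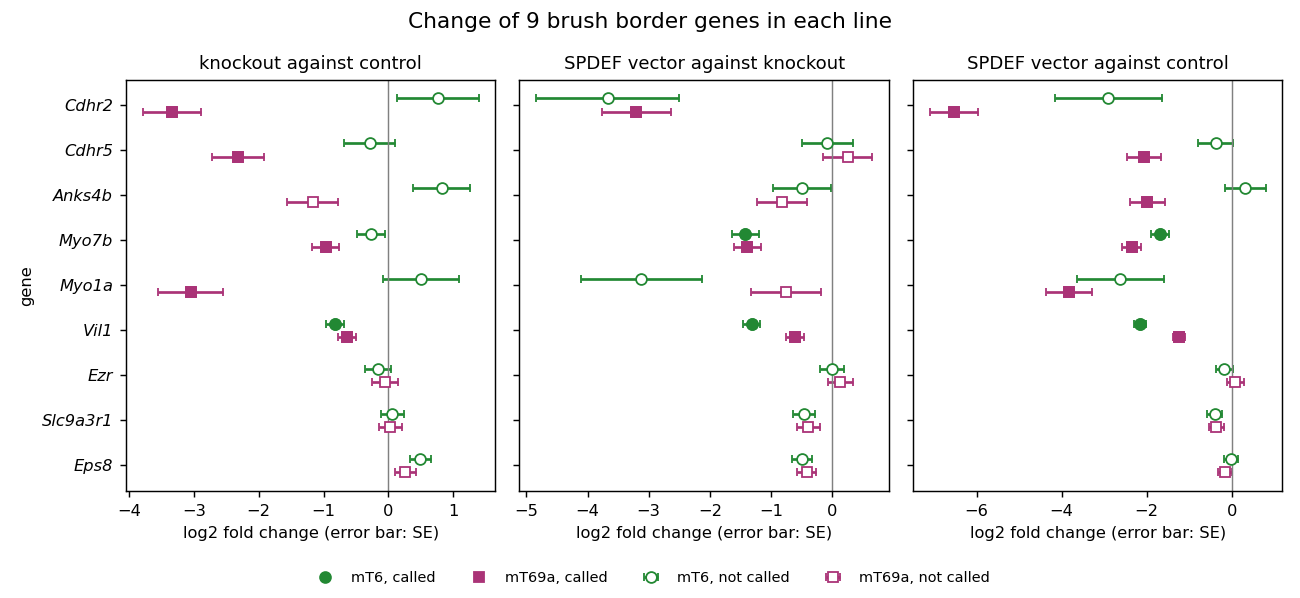
Log2 fold changes with their SE of 9 brush border genes in 3 comparisons, within mT6 (circles) and mT69a (squares); filled symbols passed the threshold of 0.05 in edgeR's test. In the knockout against the control the adhesion genes Cdhr2 (-3.34) and Cdhr5 (-2.32) passed in mT69a and not in mT6. The test of the difference between the lines passed for Cdhr2 and not for Cdhr5. Vil1 was lower in both lines in each comparison.

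The other genes of the microvillus were taken from lists put together with earlier results known. Of 39 genes of the actin core and membrane links, 35 were tested, and in the knockout against the control 3 were called higher and 2 lower, beside the 3.3% and 2.3% of all tested genes given above, with a median of 0.12 beside 0.00. The 3 that rose were Podxl, the anionic sialomucin podocalyxin of apical membranes (1.95 ± 0.16, adjusted p = 7.01e-05), and the ezrin paralogs radixin, Rdx (0.84 ± 0.12, 0.00243), and moesin, Msn (0.71 ± 0.15, 0.0175). The 2 that fell were Fchsd2 (-0.93 ± 0.15, 0.00417), an F-BAR protein of the actin cortex, and the villin relative advillin, Avil (-1.86 ± 0.39, 0.0224). Moesin was not called with TPM (0.113 at a pseudocount of 1) and in 4 of 12 fits that left out a library, nor was Avil in 6. With the replicate block the list held 7 higher and 4 lower, beside 2171 calls among all 14473 tested genes. Among the 4 was Calml4 (-0.93, 0.00219), the calmodulin-like light chain of myosin 7B.

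Radixin and podocalyxin rose in the mT69a knockout, where Ezr (-0.05 ± 0.20) did not pass. Rdx had 15.9 and 11.3 TPM in the mT69a controls, 70.5 and 47.9 in the mT69a knockout and 62.9 and 52.9 with the vector, and 9.50 to 15.7 TPM in the 6 mT6 libraries. Podxl had 0.54 and 0.38 TPM in the mT69a controls, 4.72 and 3.91 in the mT69a knockout and 4.19 and 4.15 with the vector. In mT69a the knockout and vector libraries of both genes lay apart from the controls and overlapped each other, and Ezr stayed at 201 to 288 TPM in the same 6 libraries. Rdx rose by 1.91 ± 0.17 in mT69a (9.03e-05) and Podxl by 3.12 ± 0.23 (2.38e-05), while in mT6 neither was called without the block and Podxl was with it (0.77, 0.0283). The difference between the lines passed for Rdx (2.16 ± 0.24, 0.000641) and Podxl (2.34 ± 0.32, 0.00196). Ezr remained the most abundant of the 3 paralogs per length in every library.

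In the vector libraries against the knockout, 2 of the 35 were called higher and 3 lower, beside 4.46% and 3.32% of all tested genes, with a median of -0.12 beside -0.02. The larger rise was in Slc9a3r2, which encodes NHERF2, the paralog of NHERF1 (2.30 ± 0.14, adjusted p = 8.77e-06). It had 3.66 and 3.57 TPM in the mT6 controls, 2.92 and 2.14 in the knockout and 8.80 and 8.39 with the vector. In mT69a it had 1.08 and 0.64 TPM in the controls, 1.73 and 1.14 in the knockout and 9.05 and 7.79 with the vector. The 4 vector libraries lay above all 8 others, and the call held without each library in turn (1.51e-05 to 0.000173). Slc9a3r1 moved the other way in each of the 4 pairs, from 66.0 and 45.6 TPM in the mT6 knockout to 43.1 and 34.0 with the vector and from 100 and 63.4 to 66.9 and 42.3 in mT69a, a change that passed with the block, with DESeq2 (0.0364) and with no filter on low counts (0.0109) but not in the edgeR fit of all groups. Myo1c, a myosin 1 of the cell cortex, rose by 0.83 ± 0.15 (0.00835; not called with TPM, 0.191). Eps8l3, a paralog of Eps8 (-1.11 ± 0.25, 0.0281), plastin 1, Pls1 (-0.35 ± 0.08, 0.0305), a bundler of the microvillus core, and Cobl (-0.56 ± 0.14, 0.0386), an actin nucleator, fell, each losing its call in 7 or 8 of 12 fits that left out a library. With the block the list held 5 higher and 7 lower, beside 2293 calls among all 14473 tested genes.

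**Figure D3:**
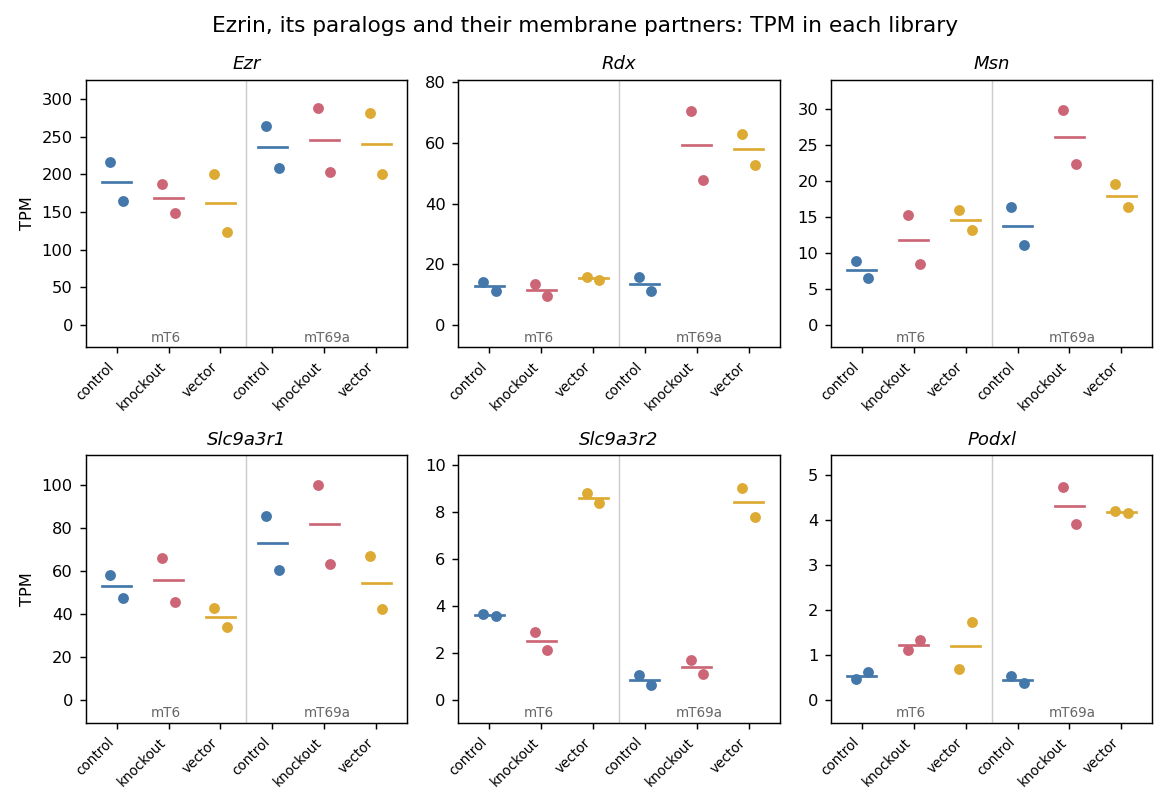
TPM of ezrin, its paralogs radixin and moesin, the scaffolds NHERF1 (Slc9a3r1) and NHERF2 (Slc9a3r2) and podocalyxin in each library, with means of 2 as bars; axes start near 0 and differ between panels. Slc9a3r2 was high in the 4 vector libraries (7.79 to 9.05 TPM), and Rdx and Podxl were high in the knockout and vector libraries of mT69a.

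With the vector against the control, 13 of the 35 were called, 7 higher and 6 lower, beside 8.04% and 6.41% of all tested genes, with a median of -0.13. Slc9a3r2 (2.33 ± 0.14, adjusted p = 5.21e-06), Podxl (1.85 ± 0.17, 5.61e-05) and Rdx (1.13 ± 0.12, 0.000154) led the rises. Fchsd2 (-1.14 ± 0.15, 0.000624), Eps8l3 (-1.74 ± 0.26, 0.00180) and Avil (-3.76 ± 0.57, 0.00191) led the falls. The block gave 10 higher and 12 lower, beside 3677 calls among all 14473 tested genes.

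Many hydrolases and transporters of the brush border membrane did not pass the filter on low counts. Of 22 hydrolase genes 10 were tested, and none was called in the averaged knockout comparison, where the median was -0.51 (-0.66 with 6 near-zero genes at their bound). The block called 1, Ace (-0.45, 0.0220), beside 2171 calls among all 14473 tested genes. In the mT69a knockout 3 were called lower and 1 higher (median 0.05), beside 3.71% and 4.88% of all tested genes, and none was called in mT6 (median -0.52). The difference between the lines was called higher for 1 and lower for none (median 1.54), beside 4.04% and 2.58%. In the mT69a control against the mT6 control 3 were called higher and 5 lower (median -1.57), beside 13.4% and 14.7%. With the vector, averaged over the lines, 1 was called lower against the knockout (median -0.56, or -0.23 at the bound), beside 3.32% of all tested genes. Against the control 2 were called lower in the average (median -1.23), beside 6.41%. Within mT69a 4 were called lower and 1 higher against the control, beside 5.36% and 7.01%, and within mT6 1 lower, beside 4.7%. In the average, Ace, angiotensin-converting enzyme, fell with the vector (-0.96 ± 0.21 against the knockout, 0.0205, and -1.44 ± 0.21 against the control, 0.00143). Ggt1, gamma-glutamyltransferase, fell against the control (-2.65 ± 0.66, 0.0235). It had 56 summed counts in the mT6 control and 13 in the mT69a control, and 3 and 2 with the vector, near the limit of detection. This call of Ggt1 and that of Ace against the knockout were each lost in 4 of 12 fits that left out a library. Alpi, Akp3 and Mep1b were picked out after their values were seen and do not stand for the list. The intestinal alkaline phosphatase Alpi had 443 summed counts in the mT69a control, 16 in the knockout and 6 with the vector, and at most 2 in any mT6 group. It was 27.0-fold lower in the mT69a knockout than in its control (95% exact interval 16.5 to 47.7). Akp3, another intestinal alkaline phosphatase, had 120, 3 and 0 counts in the same groups, at least 36.2-fold lower with the vector than in the control against a floor of 3 counts over the group. The meprin subunit Mep1b had 42, 1 and 2. All 3 were near absent outside the mT69a control. Of 23 apical transporter genes 11 were tested, with medians of -0.39 in the knockout (-0.27 with 2 near-zero genes at their bound) and 0.01 with the vector against the knockout. Averaged over the lines, 1 was called higher in the knockout, beside 3.3% of all tested genes. With the vector against the knockout 2 were called lower, beside 3.32%. The bile acid carrier Slc10a2 rose in the knockout (1.0 ± 0.23, 0.0332) and fell with the vector against the knockout (-1.29 ± 0.26, 0.0128), calls lost in 7 (up to 0.178) and 2 (up to 0.0822) of 12 fits that left out a library, and the sodium-proton exchanger Slc9a2 fell with the vector against the knockout (-1.01 ± 0.17, 0.00418). In the average of the lines no transporter was called with the vector against the control by edgeR (median -0.39). Within mT6 1 was called lower in that comparison, beside 4.7% of all tested genes. Within mT69a 1 was called higher and 3 lower, beside 7.01% and 5.36%. In the mT69a knockout against its control 3 transporters were called higher and 2 lower, beside 4.88% and 3.71%, and none in mT6. The difference between the lines in the knockout was called higher for 3 and lower for none, beside 4.04% and 2.58%.

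Of 15 transcription factors of the enterocyte lineage 13 were tested. In the knockout 3 were called lower and none higher (median -0.20), beside 2.3% and 3.3% of all tested genes, among them Hnf4a (-1.14 ± 0.16, adjusted p = 0.00252) and Hnf4g (-0.97 ± 0.21, 0.0247), nuclear receptors of gut, liver and kidney epithelium. With the block Isx (0.57, 0.00201) and Prdm1 (1.69, 0.0124) were called higher as well. Within mT6 the block fit called Isx lower in the knockout (-0.84, 0.00194), so the averaged rise of Isx does not hold in each line. The call of Hnf4g was lost in 4 of 12 fits that left out a library (up to 0.130). With the vector against the knockout, Hnf4a (-0.75 ± 0.17, 0.0225) and Isx (-2.03 ± 0.19, 0.000113) fell (median -0.34), beside 3.32% of all tested genes, and against the control 5 fell and 1 rose (median -0.54), beside 6.41% and 8.04%, with Hnf4a (-1.89 ± 0.17, 6.05e-05) and Isx (-1.46 ± 0.19, 0.000591) among the falls and Prdm1 (2.44 ± 0.51, 0.0125) as the rise. The call of Hnf4a against the knockout was lost in 5 of 12 fits that left out a library, and that of Prdm1 against the control in 4. Isx, an intestinal homeobox gene, was called in opposite directions in the lines against the control (-3.89 in mT6 and 0.97 in mT69a). Hnf4a had 64.3 and 54.2 TPM in the mT69a controls, 13.8 and 7.87 in the mT69a knockout and 7.79 and 4.53 with the vector, and 2.24 to 8.33 TPM in the 6 mT6 libraries. The mT69a controls stood far above the rest, as they did for Cdhr2, Myo1a, Anks4b and Cdhr5. Of 20 apical polarity and trafficking genes 19 were tested, with medians of -0.02, -0.04 and -0.06 in the 3 averaged comparisons. With the vector against the knockout 1 of 19 was called higher, Vps33b (0.45 ± 0.11, 0.0386), beside 4.46% of all tested genes. With the vector against the control 1 of 19 was called lower, Vipas39 (-0.44 ± 0.10, 0.0130), beside 6.41%. Both counts lay near the share over all tested genes. Left-out libraries ended the call of Vps33b in 11 of 12 fits (adjusted p up to 0.170) and that of Vipas39 in 3 (up to 0.0693). With the block this list had 1, 5 and 5 calls, beside 2171, 2293 and 3677 calls among all 14473 tested genes.

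The genes nearest in pattern were found for the 3 genes with the widest range, as the smallest root mean square difference of centred group means of log2 CPM over the 6 groups among all tested genes. Nearest to Cdhr2 were Avil (0.90), the galectin Lgals2 (1.0) and Nlrp6 (1.0). Nearest to Myo1a were Tm4sf20 (0.28), Ces2c (0.38) and Tm4sf5 (0.44), and Hnf4a was in rank 5 (0.53). Nearest to Anks4b were Serpinb9b (0.24), Epha7 (0.27) and Creb3l3 (0.30), and Hnf4a was in rank 52 (0.55). Serpinb9b, Epha7 and Creb3l3 had 0 to 6 summed counts in each mT6 group and passed the count filter through mT69a, so their mT6 values rest largely on the prior count, and their nearness to Anks4b is partly set by it. The same holds for Tm4sf5 and its nearness to Myo1a, with 0 to 3 counts in each mT6 group. Cdhr2, Myo1a and Avil themselves had 2, 1 and 1 summed counts in the mT6 vector group, where their values rest largely on the prior count too. The measure is a description over 6 groups of 2 libraries. Avil also heads the tuft cell markers here: the 8 tuft genes summed to 19.5 to 20.2 TPM in the mT69a controls, 2.10 to 6.33 in the knockout and 1.60 to 1.62 with the vector, and to at most 1.47 TPM in mT6. In the mT69a controls Avil was 19.8 and 19.1 TPM of that sum, and the defining tuft genes Gnat3, Sh2d6, Gfi1b and Il25 had at most 3 counts in every library.

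**Figure D4:**
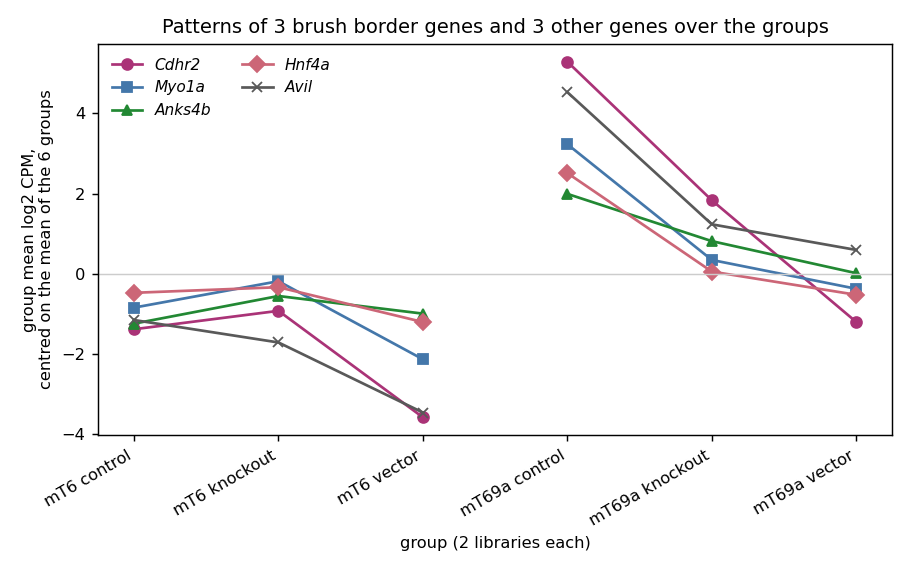
Group means of log2 CPM, each gene centred on its mean over the 6 groups (2 libraries each), for Cdhr2, Myo1a and Anks4b and for Hnf4a and Avil. All 5 genes were highest in the mT69a control, from 1.99 for Anks4b to 5.29 for Cdhr2, and in both lines the vector group lay below the knockout group. The mT6 vector points of Cdhr2, Myo1a and Avil rest on 2, 1 and 1 summed counts and so largely on the prior count. For Anks4b the mT6 libraries of these groups overlapped and the change was not called.

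The share of a gene's TPM in its main transcript was not used to choose the genes. It was tested for the 4 genes that had counts for several transcripts and counts in every library. The test was exact permutation of libraries within line or condition, two-sided, with 16 tests adjusted together. None passed after adjustment, and the smallest p this exact permutation allows was 0.0556 for conditions and 0.00926 for lines. The transcript Eps8-202 took 67.0% and 58.8% of Eps8 TPM in the mT6 controls and 76.2% and 68.0% in the knockout, while in mT69a the controls had 61.7% and 61.5% and the knockout 75.7% and 69.4%. The knockout libraries lay above the controls without overlap in both lines, by 10.1 percentage points on average (exact permutation p = 0.0556, adjusted p = 0.296). With the vector the shares were 73.0% and 76.6% in mT6 and 56.5% and 64.4% in mT69a. Vil1-201 took 92.3% to 99.3% of Vil1 TPM, with a difference of -3.06 points between vector and knockout (exact permutation p = 0.0556, adjusted p = 0.296) and of 2.20 points between the lines (exact permutation p = 0.0278, adjusted p = 0.296). Ezr-201 took 86.1% to 98.9% and Cdhr5-201 42.1% to 68.8%, with smaller or more variable differences between groups. The shares are estimates of transcript abundance by the authors' quantification, and their estimation error is not given.

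**Figure D5:**
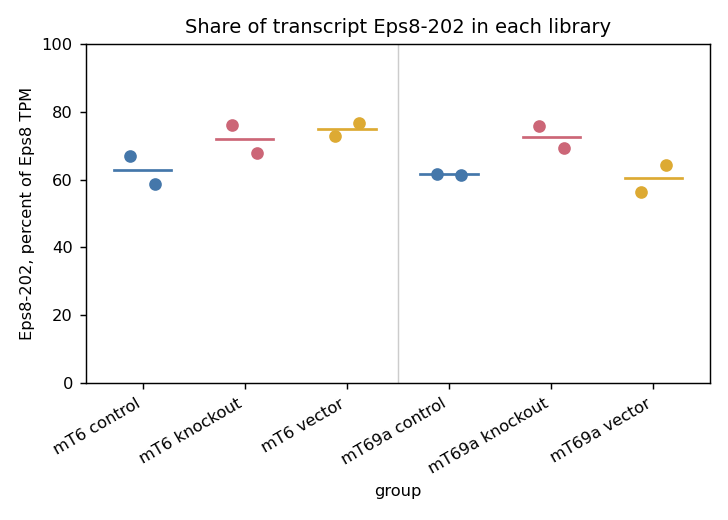
Share of transcript Eps8-202 in the TPM of Eps8, in percent from 0 to 100, for each library by group; bars are means of 2. In each line both knockout libraries lay above both controls (68.0% to 76.2% against 58.8% to 67.0% in mT6).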

How the data were processed

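RNA-seq libraries were made from total RNA of the 12 organoid samples with a stranded kit, per the labels' protocols. Per the submitters' processing notes, FastQC 0.11.8, STAR 2.5.2b, RSEM 1.3.0 and the build GRCm38.p6 were used, and the annotation release and the strand setting are not given in the sources used here. Per the file headers, the authors deposited expected counts and TPM per gene and per transcript, as RSEM estimates them for each library. Of 53715 gene identifiers 53620 were matched to GENCODE M21 symbols ignoring the version (51464 with the same version), and identifiers without a symbol held 0.0109% of the counts.

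Expected counts were rounded to whole numbers (119 of 120 member values were whole within 0.005) and fitted with edgeR 4.0.16: filterByExpr, TMM factors (0.839 to 1.2), a mean per group over all 12 libraries, and the robust quasi-likelihood test with Benjamini-Hochberg adjustment over 14473 genes at 0.05. The biological coefficient of variation was 19.2%, with 6 residual degrees of freedom. Centred patterns used log2 CPM with a prior count of 2. Folds of summed counts carry 95% exact intervals, and both these and the floor of 3 counts cover counting error only. Other tools were R 4.3.3, limma 3.58.1, DESeq2 1.42.0, scipy 1.17.1, matplotlib 3.10.9, pandas 2.3.3, numpy 2.4.6 and Python 3.11.15. The fit and the permutation test were tested on simulated data.

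Whether the libraries of a group came from separate cultures is not stated in the labels. The p-values therefore reflect how far these libraries spread, which may be technical only. Same-numbered libraries deviated together in every 1 of 15 pairs of groups (r of deviations from group means 0.205 to 0.531, median 0.282), so the number was also fitted as a block. Its origin is not stated in the labels. The other alternatives were RLE factors, DESeq2, no filter, limma on log2(TPM + 1) and log2(TPM + 0.1), only the groups compared, and leaving out each library.

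The members, the lists of other genes, the motifs and the marker lists (epithelial, pancreatic duct, enterocyte, tuft, acinar, fibroblast, immune, endothelial) were chosen with earlier results of these data known. Named were the 10 members, up to 3 called genes per direction with the smallest adjusted p from each list in each averaged comparison, and the 3 nearest patterns of the 3 members with the widest range, leaving out members, predicted genes and pseudogenes. Alternatives for the named genes of the other lists were added after seeing the data. Some items of the genotype and of these lists are not reported here.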

Additional observations from a re-analysis of the deposited data

Results flagged for a closer look

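The change in the knockout differed between the lines for Cdhr2, by -4.10 on the log2 scale (mT69a minus mT6, edgeR adjusted p = 0.0131), and for Myo1a, by -3.56 (adjusted p = 0.0216). In mT6 both genes lay near the limit of detection, with 39 and 18 summed counts in the controls. The change with the vector against the control differed between the lines for Vil1, by 0.90 (edgeR adjusted p = 0.0219), a smaller fall in mT69a. This was not called on the TPM scales (limma adjusted p 0.291 and 0.273 at pseudocounts of 1 and 0.1). The median of the same difference over chromosome 1, where Vil1 lies, was 0.32, and its part was not tested. The genes were chosen with results of these libraries known. The labels describe the controls as Rosa26 knockout clones, and the knockout and vector groups of a line share a knockout tag. Line and clone therefore cannot be told apart.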

How the results depend on the processing

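Over the member values, 334 kept direction and call, 18 gained a call, 22 lost it and 4 turned sign under the alternatives other than leaving out a library. When each library was left out in turn, 555 kept both, 6 gained a call, 73 lost it and 14 turned sign. The cause was not tested. With the TPM scale, the change with the vector against the knockout turned to -0.04 and -0.05 for Cdhr5 and to -0.06 and -0.06 for Ezr (pseudocounts of 1 and 0.1). None of these sign changes was of a called value. For the named genes of the other lists, 205 values kept their call and 26 lost it, and 320 kept it and 76 lost it when a library was left out.

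In the averaged knockout comparison, 3 members were called, but 5 with DESeq2, 5 with no filter, 5 with the replicate block and 1 with log2(TPM + 0.1). Over all genes 810 were called, but 1555 with no filter, 2171 with the block, and 429 and 430 on the TPM scales. In mT6 the 1 call became 2 with no filter, 2 with the block, and 0 with either TPM scale or only the groups compared. In mT69a the 5 became 3 with either TPM scale, and for the difference between lines the 2 became 4 with DESeq2 or no filter. For the vector against the knockout, the 4 became 7 with no filter, and over all genes 1125 became 1740 with no filter, 2293 with the block, and 593 and 583 on the TPM scales. In mT6 the 2 became 4 with no filter or the block and 0 with only the groups compared, and in mT69a the 3 became 5 with the block. For the vector against the control, 2092 genes became 3677 with the block, and 1049 and 1027 on the TPM scales. The count of differences between lines, 1, became 3 with DESeq2, no filter or log2(TPM + 1), and 2 with the block or only the groups compared. On the TPM scales Vil1 was not among them. The block changed no member call other than those given with the results.

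Leaving out 1 library gave 1 to 5 called members in the averaged knockout comparison, 0 to 1 in mT6, 2 to 6 in mT69a and 0 to 3 for the difference. For the vector against the knockout it gave 3 to 5, with 1 to 2 in mT6 and 0 to 3 in mT69a. Against the control it gave 3 to 6, with 4 to 6 in mT69a and 0 to 2 for the difference, and between the controls 4 to 5. Genes called ranged over 431 to 889, 637 to 1098 and 1208 to 1904 in the 3 averaged comparisons. Log2 changes that turned sign ranged over -0.60 to 0.05 for Anks4b and -0.02 to 0.12 for Slc9a3r1 in the knockout, -0.17 to 0.39 for Cdhr5 and -0.10 to 0.20 for Ezr with the vector against the knockout, and -0.20 to 0.10 for Ezr and -0.18 to 0.02 for Eps8 against the control. Transcript shares that turned sign ranged over -0.622 to 1.74 points for Ezr between lines, -3.03 to 0.682 for Ezr with the vector against the knockout, -0.961 to 2.12 against the control, and -0.674 to 5.83 for Cdhr5 in the knockout. With 2 libraries a group, leaving out 1 leaves a lone library, which is then assumed to vary like the other groups. Depth limits Cdhr2 and Myo1a in mT6 and Ush1c everywhere.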
